A study of Rattus norvegicus with 14 samples.

Results

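The genes of the fat cell named below were followed in the abdominal aorta, from the hormones that adipocytes release to the proteins that coat, fill and empty their lipid droplet. They were found as the rows of the annotated array table that carry the name Adipoq, Lep, Retn, Plin1, Cidec, Lpl, Lipe, Fabp4 or Pparg, 9 of the 19357 genes measured. The rule named 10 genes, and Pnpla2 was not analysed here. Messenger RNA was measured with 1 array per animal in 14 female Wistar rats, an outbred strain: 4 non-pregnant rats (NPr), 5 healthy pregnant rats (Pr) and 5 pregnant rats with experimental preeclampsia (ExpPE). On day 14 of pregnancy the ExpPE rats received lipopolysaccharide (LPS, a component of the outer membrane of bacteria), 1 µg per kg dissolved in 2 ml saline and infused over 1 h. Pr and NPr rats received saline alone, the pregnant rats were killed on day 20 of pregnancy and the NPr rats at diestrus. The animals' age was not given in the sources used here. No non-pregnant rat given LPS was put on an array, so an effect of LPS without pregnancy cannot be seen. Whole aortas had been cleaned of surrounding tissue before RNA was isolated, and such an extract mixes the RNA of every cell type left on the vessel.

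White adipocytes store triglyceride in 1 large droplet under a coat of perilipin, take up fatty acids that lipoprotein lipase frees from circulating lipoproteins, and release them again when adrenergic signals act on the lipases at the droplet. They also secrete adiponectin, leptin and, in rodents, resistin, which reach other organs and the wall of the vessel they surround. The aorta is wrapped in perivascular adipose tissue, which in rodents can hold brown as well as white adipocytes. Most of the genes followed here are expressed in both kinds of fat cell. Fabp4 is also made by capillary endothelium and macrophages, and Lpl by muscle and macrophages, so neither is a marker of adipocytes alone.

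Promoter sequences were searched as a description, and 6 of the 9 genes have a window in the RefSeq table of build GRCr8. Lpl, Lipe and Fabp4 have no window there. The letters searched were TTGCNNAA, the core bound by the C/EBP factors that drive adipocyte differentiation, on both strands. In the 250 bases before the start of transcription it was found in Lep, Plin1, Cidec and Pparg, 4 of 6 genes. Counted by window it was in 4 of 7, since Pparg has 2, beside 9.22% of all 33469 windows of that length. Capitals mark the match in the 250 bases shown for each, 5′ to 3′ on the strand of the gene. The windows are chr4:58626288-58626537 on the plus strand for Lep, chr1:143086149-143086398 on the minus strand for Plin1, chr4:148137116-148137365 on the minus strand for Cidec and chr4:150154522-150154771 on the plus strand for the second of 2 Pparg starts.
Lep: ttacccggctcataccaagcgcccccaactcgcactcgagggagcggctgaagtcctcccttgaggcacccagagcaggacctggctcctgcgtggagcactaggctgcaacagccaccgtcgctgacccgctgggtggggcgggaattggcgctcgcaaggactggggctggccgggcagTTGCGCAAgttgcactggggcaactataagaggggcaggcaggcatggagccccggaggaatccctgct
Plin1: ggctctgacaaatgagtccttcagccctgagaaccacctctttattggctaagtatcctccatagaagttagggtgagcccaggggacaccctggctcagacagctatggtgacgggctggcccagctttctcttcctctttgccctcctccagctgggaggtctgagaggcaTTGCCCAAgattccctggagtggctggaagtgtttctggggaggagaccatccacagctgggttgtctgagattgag
Cidec: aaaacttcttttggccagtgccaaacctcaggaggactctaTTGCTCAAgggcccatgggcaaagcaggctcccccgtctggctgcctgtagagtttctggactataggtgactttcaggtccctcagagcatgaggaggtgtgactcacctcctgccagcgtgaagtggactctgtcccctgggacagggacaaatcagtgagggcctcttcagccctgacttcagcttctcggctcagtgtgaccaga
Pparg: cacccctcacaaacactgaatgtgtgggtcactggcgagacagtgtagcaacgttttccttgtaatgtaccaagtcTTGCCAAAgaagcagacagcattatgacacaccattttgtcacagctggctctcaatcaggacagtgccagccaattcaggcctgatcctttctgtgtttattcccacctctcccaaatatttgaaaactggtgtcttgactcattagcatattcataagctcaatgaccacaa
The match in Lep, TTGCGCAA, reads the same on both strands and ended 62 bases before the start. Of the other 6 motifs searched, the direct repeat AGGNCANAGGNCA, the kind of element that the Pparg protein binds with its partner Rxr, was in 0 of the 7 member windows and in 0.368% of all windows. Its single half-site, AGGTCA, was in the window of Retn alone (14.1% of all windows). CCAAT was in 4 of the 7 windows (34% of all windows), GGGCGG in 3 (30.5%), and TATAAA (12.9%) and CACGTG (5.59%) in none. These matches are of letters only, and binding was not measured. Whether they bear on the levels of these genes was not tested.

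The group of each array was read from the column names of the annotated table. The intensities were deposited a second time under sample titles that exchange the 2 pregnant groups, so that the 5 arrays named ExpPE carry titles of pregnant rats and the 5 named Pr titles of preeclamptic rats. The 2 sets of names alone do not settle which is right, and the column names were used throughout. Under the other titles each value given for Pr below belongs to ExpPE and the reverse, and the sign of every ExpPE vs. Pr difference turns. The comparison of both pregnant groups with NPr does not depend on it and was therefore added. All arrays were normalized together, and array medians ran from 5.58 to 5.67 on the log2 scale. The 1217 genes of odour and taste receptors, which serve as background, had a 95th percentile of 3.91 for their mean log2 intensity, and all 9 genes lay above it. Arrays ExpPE 2, ExpPE 4 and NPr 1 had the highest background, with receptor means of 3.04, 3.01 and 2.94 against 2.63 to 2.85 on the other 11. Animal numbers follow the column order within each group and pair no animals.

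The messenger RNAs for adiponectin, leptin and resistin, the hormones among these genes, did not differ between the groups beyond their spread. The hormones themselves were not measured. Adipoq, which encodes adiponectin, a hormone that raises insulin sensitivity, had log2 intensities of 11.48, 11.48, 11.84 and 10.61 in NPr 1 to 4. In Pr 1 to 5 the values of Adipoq were 11.94, 11.00, 11.27, 10.87 and 11.64, and in ExpPE 1 to 5 they were 11.98, 11.65, 11.02, 10.92 and 10.80. The 3 groups covered nearly the same range, and the lowest value was that of a non-pregnant rat. Mean levels of Adipoq were 11.35 ± 0.52 (SD, n = 4) in NPr, 11.34 ± 0.45 (n = 5) in Pr and 11.27 ± 0.51 (n = 5) in ExpPE rats. In a whole-tissue extract fewer adipocytes and less RNA per adipocyte cannot be told apart, here and in all that follows.

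Lep encodes leptin, the hormone that reports fat stores to the brain. Its log2 intensities were 6.53, 6.85, 6.91 and 6.15 in NPr, 7.06, 6.36, 7.38, 6.13 and 6.78 in Pr and 7.58, 8.22, 6.73, 6.74 and 6.27 in ExpPE rats. ExpPE 1 and 2 were above every other animal and the remaining ExpPE rats were inside the range of Pr. Lep was the only one of the 9 genes whose mean was highest in ExpPE, with 7.11 ± 0.78 against 6.74 ± 0.51 in Pr and 6.61 ± 0.35 in NPr rats. The difference between ExpPE and NPr was 0.50 on the log2 scale (95% confidence interval -0.25 to 1.26, adjusted p = 0.668 by limma), which is a 1.42-fold level. Array ExpPE 2, which held the highest value of Lep, was also the array with the highest background, and the part of the background in that value was not tested.

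Retn, which encodes resistin, a rodent adipocyte hormone that opposes insulin, ran from 7.15 in ExpPE 4 to 9.76 in ExpPE 1. Its values were 8.81, 8.67, 9.44 and 7.30 in NPr, 9.24, 7.81, 8.76, 7.22 and 8.84 in Pr and 9.76, 8.26, 7.83, 7.15 and 7.70 in ExpPE rats. Each group held at least 1 animal near the bottom of the range and 1 above 9. The mean of Retn fell in the order NPr, Pr, ExpPE (8.56, 8.38 and 8.14), and the steps were smaller than the SD within a group, which was 0.83 or more.

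Of the genes for proteins of the droplet, Plin1 encodes perilipin 1, the coat that holds lipases off the droplet until it is phosphorylated. Its values were 10.12, 9.67, 10.49 and 8.30 in NPr, 9.96, 8.84, 9.15, 8.46 and 10.16 in Pr and 10.64, 9.83, 8.73, 8.89 and 8.40 in ExpPE rats. High and low animals occurred in all 3 groups. Cidec encodes the protein that passes lipid between touching droplets so that 1 large droplet forms. Cidec had values of 10.54, 10.004, 10.83 and 8.33 in NPr, 10.19, 8.48, 9.56, 8.08 and 10.07 in Pr and 10.75, 9.87, 8.51, 8.75 and 8.15 in ExpPE rats. It was at or above 10 in 3 of 4 NPr rats and in 3 of the 10 pregnant rats. Over the 14 animals Cidec covered the widest range of the 9 genes, 6.70-fold, followed by Retn (6.12-fold), Pparg (5.78-fold) and Plin1 (5.09-fold), and Adipoq the narrowest, 2.58-fold. Cidec was 0.65 lower on the log2 scale in Pr than in NPr rats (interval -1.96 to 0.66) and 0.72 lower in ExpPE than in NPr rats (interval -2.03 to 0.59), and neither passed the test.

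Lpl, the lipoprotein lipase that feeds the cell, and Lipe, the hormone-sensitive lipase that empties it, followed the same animals. Lpl was at 11.35, 11.00, 11.59 and 9.55 in NPr, 11.47, 10.40, 10.66, 10.15 and 11.46 in Pr and 11.86, 10.89, 10.17, 9.87 and 9.91 in ExpPE rats. Lipe was at 10.19, 9.60, 10.35 and 8.41 in NPr, 9.99, 8.81, 9.21, 8.60 and 9.99 in Pr and 10.67, 9.79, 8.84, 8.94 and 8.59 in ExpPE rats. NPr 4 was the lowest animal and ExpPE 1 the highest for both lipases. Means of Lpl were 10.87, 10.83 and 10.54 in NPr, Pr and ExpPE rats, with an SD between 0.61 and 0.91, and those of Lipe were 9.64, 9.32 and 9.37, with an SD between 0.65 and 0.88.

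Fabp4, the fatty acid carrier of the adipocyte cytoplasm, had values of 11.62, 11.46, 12.05 and 10.27 in NPr, 11.59, 10.46, 11.06, 10.29 and 11.30 in Pr and 12.01, 10.90, 10.57, 10.70 and 10.33 in ExpPE rats. Pparg, the nuclear receptor that directs adipocyte differentiation, had values of 9.43, 9.003, 9.54 and 7.35 in NPr, 8.99, 7.74, 8.42, 7.57 and 8.89 in Pr and 9.89, 9.08, 7.91, 7.87 and 7.41 in ExpPE rats. For both genes 3 NPr rats lay high and NPr 4 lay lowest of all animals, so that the group with the highest mean also held the lowest value. The difference between the pregnant rats and NPr was -0.43 for Fabp4 (interval -1.17 to 0.31) and -0.45 for Pparg (interval -1.45 to 0.54).

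**Figure D1:**
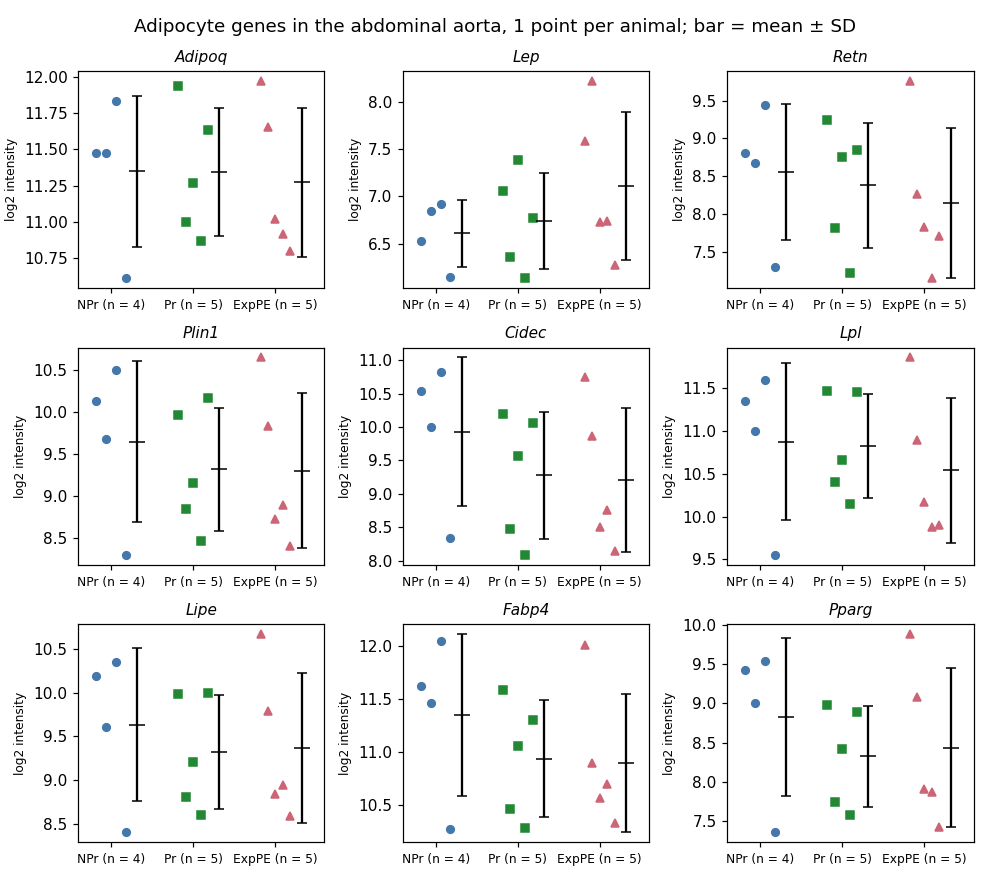
Log2 intensity of the 9 genes (y axis) by group (x axis), 1 point per animal, with the group mean and SD beside the points. The points of the 3 groups overlap for every gene, and NPr 4 lies far below the other NPr animals in most panels.

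None of the 9 genes differed between groups by the test. At an adjusted p under 0.05 in limma, 0 of 9 passed in Pr vs. NPr, where 41 of all 19357 genes did (0.212%), in ExpPE vs. NPr (all genes 0.0982%), in ExpPE vs. Pr (0 of all genes, 0%) and in the pregnant groups vs. NPr (0.176%). At the threshold the study used (fold change over 1.4 and an unadjusted p under 0.05) the count was 0 of 9 in each, beside 3.41%, 3.13%, 2.72% and 2.59% of all genes in the same order. At an unadjusted p under 0.05 alone it was again 0 of 9 in each, beside 5.35%, 7.61%, 8.48% and 5.54% of all genes. Groups did not overlap for 0 of 9 genes in each of the 4 comparisons, against 2.71%, 2.07%, 1.13% and 0.563% of all genes. The smallest unadjusted p among the 36 tests was 0.175, for Lep in ExpPE vs. NPr.

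The direction was the same for most of them. In Pr vs. NPr 8 of 9 genes were lower, with a median log2 difference of -0.31 beside -0.02 over all genes, and in ExpPE vs. NPr the same number was lower, with a median of -0.35 beside 0.02. These comparisons share the NPr animals, and the genes move together, so the 8 are not separate observations. In ExpPE vs. Pr 6 of 9 were lower and the median was -0.04, beside 0.02 over all genes. The intervals were wide. For Plin1 the difference between ExpPE and Pr lay between -1.05 and 1.02, a fold change between 0.484 and 2.02, so these animals leave room for a large change in either direction. A single non-pregnant rat moved these medians: in Pr vs. NPr the median was -0.72 without NPr 4 and -0.05 without NPr 3, and in ExpPE vs. NPr it was -0.79 and -0.09 without the same animals. Without ExpPE 1 the median in ExpPE vs. NPr was -0.68.

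**Figure D2:**
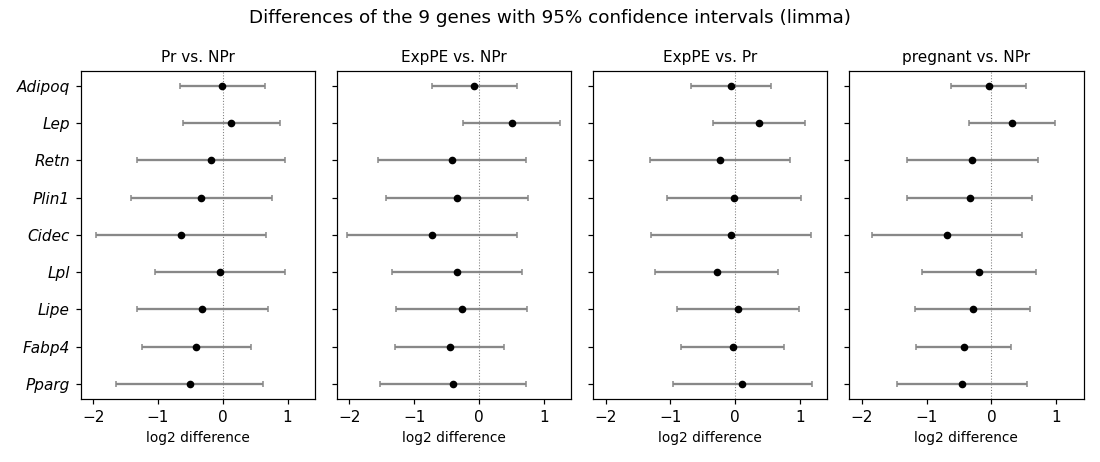
Log2 differences of the 9 genes (x axis) in Pr vs. NPr, ExpPE vs. NPr, ExpPE vs. Pr and both pregnant groups vs. NPr, with 95% confidence intervals from limma. Every interval crosses 0, and the intervals reach from -2.03 to 1.26.

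The animals differed from each other far more than the groups did, and in the same order for nearly all the genes. The mean of the 9 genes, each centred on its own mean, was highest in ExpPE 1 (1.12 on the log2 scale) and NPr 3 (0.89) and lowest in Pr 4 (-0.85) and NPr 4 (-0.98). All 9 genes were among their 5 highest values in ExpPE 1 and NPr 3, and all 9 among their 5 lowest in ExpPE 5, Pr 4 and NPr 4. Each group thus held animals of high and of low level. Means of this value were 0.19 ± 0.81 (SD, n = 4) in NPr, -0.07 ± 0.63 (n = 5) in Pr and -0.09 ± 0.82 (n = 5) in ExpPE rats. The share of the variance that lay between groups was 0.65% for Adipoq and 14.1% for Lep, the smallest and largest of the 9.

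**Figure D3:**
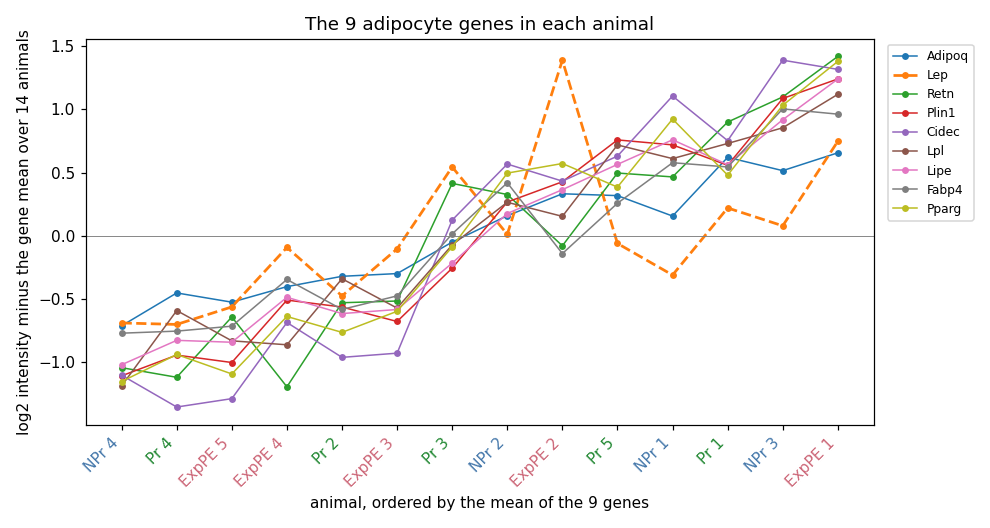
Log2 intensity of each gene minus its mean over the 14 animals (y axis), with the animals ordered on the x axis by the mean of the 9 genes and coloured by group. The lines of 8 genes climb together from NPr 4 to ExpPE 1, and the dashed line of Lep leaves them most in ExpPE 2.

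After each group's mean was taken out, the 28 pairs among the 8 genes other than Lep correlated over the 14 arrays with r between 0.913 and 0.996 and a median of 0.97. The 8 pairs that include Lep had r between 0.66 and 0.78. These are descriptions, since the values of a point share an array and an extract, and no p is given. The amplitude differed between the genes: for each unit of log2 in the mean of the other genes Cidec moved by 1.44, Pparg by 1.21, Retn and Plin1 by 1.15, Lipe by 1.04, Lpl by 1.03, Fabp4 by 0.82, Adipoq by 0.61 and Lep by 0.55.

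The genes outside the lists whose profile was most like the mean of the 9 were Abhd15, with r = 0.987 over the 14 arrays, then Pfkfb1, Marc1, Mgst1, Csad, Abcd2, Gys2, Sgpl1, Mpo and Pm20d1 (r = 0.974). Abhd15 encodes a binding partner of the phosphodiesterase by which insulin restrains lipolysis, Pfkfb1 an enzyme that sets the level of a glycolysis regulator, Abcd2 a peroxisomal carrier of fatty acids and Gys2 the glycogen synthase of liver. An r above 0.9 was found for 396 genes, 8 of the 9 among them, and an r below -0.9 for 126 genes. Only Lep among the 9 was outside. Each of the 9 is part of that mean, which raises its own r. Against the mean of the others alone, r was 0.73 for Lep and from 0.94 (Retn) to 0.99 (Cidec) for the other 8.

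Most lists of genes that work beside them moved with the same animals. The score of a list is the mean of its centred log2 values. Each r or rho of a list or gene with the 9 genes, here and below, was computed after each group's mean was taken out. Scores of 16 lipid droplet and lipolysis cofactors (r = 0.97, rho = 0.96), 19 genes of lipolysis signalling (r = 0.96), 18 of triglyceride synthesis (r = 0.96), 24 adipogenic transcription regulators (r = 0.95) and 16 of fatty acid and glycerol uptake (r = 0.94) tracked the mean of the 9 genes over the 14 arrays. Single genes with an r of 0.95 or more included Lpin1, the phosphatidate phosphatase of the triglyceride pathway, Adrb3, the beta receptor that starts lipolysis in rodent adipocytes, Adora1, Plin2, Cd36 and Cebpa. The score of 18 other adipokines had an r of 0.84. That of the 8 adipokine receptors ran the other way (r = -0.62). Among these receptors Adipor2 followed the fat genes (r = 0.95). Lepr, the leptin receptor, ran against them (r = -0.79), as did Cmklr1, the chemerin receptor (r = -0.88).

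Among the markers of other cells the 12 smooth muscle genes ran against the 9 genes (r = -0.81, rho = -0.87), and all 12 had a negative r. Summed over these genes, the linear intensity was 23595 to 41190 in NPr, 22586 to 37698 in Pr and 15062 to 36731 in ExpPE rats, which overlap. Myh11, the smooth muscle myosin, was lowest in ExpPE 2, at 10.56, and highest in NPr 4, at 12.37. The 15 genes of skeletal muscle fibres moved with the 9 genes (r = 0.66), with summed intensities of 830 to 6852 in NPr, 820 to 50904 in Pr and 1286 to 26426 in ExpPE rats, and Pr 1, ExpPE 2, ExpPE 1 and NPr 3 were highest. Nerve and Schwann cell genes (12 measured) had an r of 0.70, fibroblast genes -0.53, macrophage genes -0.31, endothelial genes 0.22 and erythroid genes -0.07. How much of the spread in the 9 genes goes with tissue left on the vessel was not tested.

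**Figure D4:**
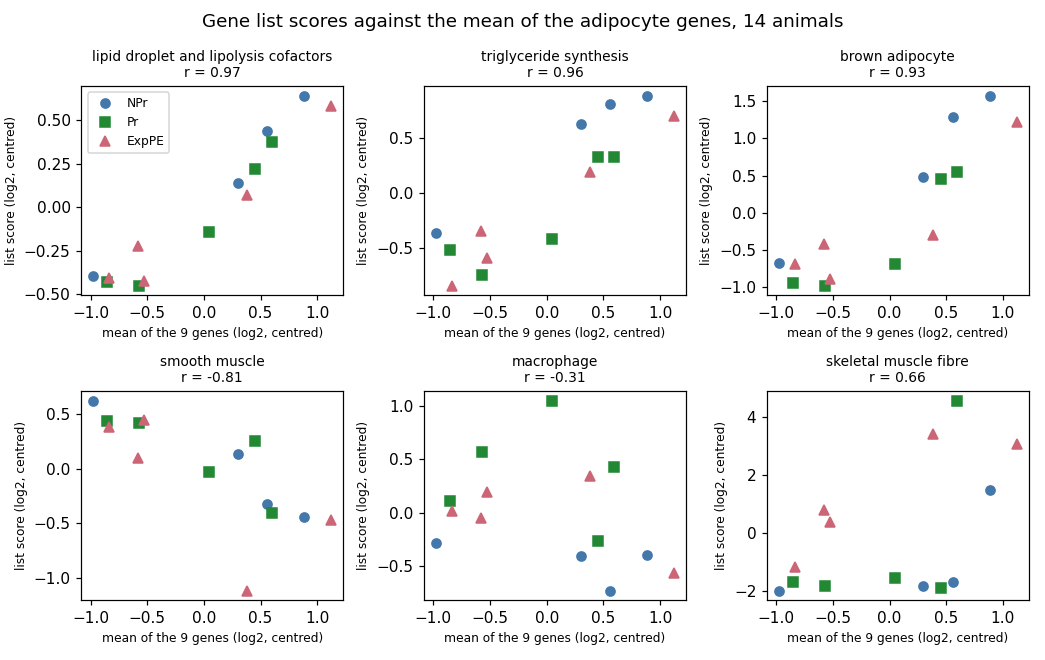
Scores of 6 gene lists (y axis, log2, centred) against the mean of the 9 adipocyte genes (x axis, log2, centred), 1 point per animal. Droplet, triglyceride and brown adipocyte lists climb with the mean (r = 0.97, 0.96 and 0.93), and smooth muscle falls (r = -0.81). Each r was computed after each group's mean was taken out, whereas the plotted points keep the differences between groups.

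The fat on these vessels carried brown adipocyte transcripts. Ucp1, the mitochondrial uncoupling protein that defines brown and beige adipocytes, had log2 intensities of 11.87, 11.28, 12.31 and 9.06 in NPr, 10.81, 7.24, 7.95, 8.31 and 10.72 in Pr and 11.60, 8.98, 7.99, 8.41 and 8.35 in ExpPE rats. All values were far above background, and 3 of 4 NPr rats were above every pregnant rat but ExpPE 1. The 14 measured genes of the brown adipocyte list, 12 of them above background, had an r of 0.93 with the 9 genes. The brown genes and the 9 genes were thus high and low in largely the same animals. Ucp1 was lower by 2.10 on the log2 scale in the pregnant groups than in NPr rats (SE 0.79, unadjusted p = 0.0183), past the study threshold but not the adjusted one (adjusted p = 0.739). Of the 14 brown genes 6 passed the study threshold there, all lower, among them Otop1 (-1.71) and Pank1 (-1.08), beside 2.59% of all genes. The median of the list was -1.01 beside 0.00 over all genes.

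Of 18 enzymes that make fatty acids and triglyceride, 7 were lower and 1 higher at the study threshold in the pregnant groups vs. NPr. Over all genes 2.59% passed it. The list median was -0.72, and 0 of the 18 passed the adjusted threshold. Gpam, the mitochondrial acyltransferase that takes the first step of glycerolipid synthesis, had values of 10.19, 10.16, 10.36 and 8.75 in NPr, 8.81, 7.95, 8.03, 8.20 and 8.56 in Pr and 9.32, 8.62, 8.15, 8.36 and 7.95 in ExpPE rats. The 3 high NPr animals were above all pregnant ones and NPr 4 was inside their range. The difference was -1.47 (SE 0.29, unadjusted p = 0.000159, adjusted p = 0.0700). Me1, malic enzyme, was at -1.40 and Acly, ATP citrate lyase, at -1.42 in the same comparison, and Agpat9 was higher, at 0.69. Gpam and Acly, and Ucp1, Otop1 and Pnpla3 of other lists, were already known as changed genes of this series when the lists were drawn up. Their places there, and their part in the counts, are no separate evidence.

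In the other lipid and adipokine lists the genes named next passed the study threshold in Pr vs. NPr, and none the adjusted one. Over all genes 3.41% passed the study threshold in that comparison. Among the droplet genes Pnpla3, a lipase relative that rises with feeding, was lower in Pr than in NPr rats (-1.98), and Hilpda, an inhibitor of triglyceride lipolysis, was higher (0.51), 2 of 16. Of 19 lipolysis signalling genes 1 passed, Adra2a, the adrenergic receptor that restrains lipolysis, which was higher (0.58). Of 16 uptake genes 3 passed: Slc2a4, the insulin-regulated glucose carrier (-0.78), and Slc27a1, a fatty acid carrier (-0.93), were lower, and Angptl4, an inhibitor of Lpl, was higher (0.87). Of 24 regulators 3 passed: Mlxipl, which turns glucose signals into lipogenic transcription (-1.53), and Ppargc1b, a coactivator of oxidative genes (-0.72), were lower, and Cebpd was higher (0.50). Of 18 other adipokines 1 passed, Il6 (1.44). Lepr was the only adipokine receptor of 8 past the study threshold in ExpPE vs. Pr, at -0.89 (unadjusted p = 0.0169, adjusted p = 0.574 by limma). Over all genes 2.72% passed it there.

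The 9 genes were then used to set animals of like fat transcript level beside each other. In a fit added after the values had been seen, the mean of the 9 genes on the same array, or of the other 8 for each of the 9, was a covariate with 1 slope for all groups. The covariate comes from the same arrays and was chosen for how closely it tracks these genes, so its p-values are descriptive. In this fit 0 of 9 genes passed the adjusted p in the 4 comparisons, beside 0.393%, 0.155%, 0% and 0.398% of all genes. At the study threshold 0 of 9 passed in Pr vs. NPr (3.78% of all genes), 1 of 9 in ExpPE vs. NPr (5.98%), 0 of 9 in ExpPE vs. Pr (3.74%) and 1 of 9 in the pregnant groups vs. NPr (3.59%), and the 1 was Lep in both. Cidec came nearest. It was lower by 0.38 in the pregnant groups than in NPr rats of the same level of the other genes (SE 0.09, unadjusted p = 0.00121, adjusted p = 0.128 by limma). Its adjusted level was 9.62 to 9.84 in the 4 NPr rats and 9.18 to 9.57 in the 10 pregnant rats. These ranges do not overlap, which held for 1 of the 9 genes and for 1.43% of all genes in this fit, and the adjustment itself narrows the ranges. The difference kept its sign in all 14 fits that left out 1 animal, between -0.40 and -0.33, and was under the fold of 1.4.

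Lep went the other way. Beside animals with the same level of the other 8 genes it was higher by 0.71 in ExpPE than in NPr rats (SE 0.25, unadjusted p = 0.0141, adjusted p = 0.253), past the study threshold. Left-out animals moved this value between 0.45 and 0.84, and without ExpPE 2 it was 0.45, under the fold of 1.4, so that the call was lost. In the pregnant groups vs. NPr Lep was higher by 0.50, between 0.37 and 0.64 with animals left out, and this call was lost without NPr 1, NPr 3, Pr 3 or ExpPE 2. The corresponding difference between ExpPE and Pr was 0.41 (interval -0.09 to 0.91, unadjusted p = 0.102). The adjusted level of Lep in ExpPE rats, 6.75 to 8.08, overlapped that of Pr rats, 6.49 to 7.39. It was 8.08 in ExpPE 2 and 7.09 or less in the other 4 ExpPE rats. The score of the nerve and Schwann cell genes was 2.68 in ExpPE 1 and 2.17 in ExpPE 2 against 0.96 or less in all other animals, and its part in the level of Lep was not tested. Adipoq, Plin1, Lipe and Retn differed by 0.14 or less in the pregnant groups, and Lpl was lower in ExpPE than in Pr rats by 0.30 (unadjusted p = 0.0204, adjusted p = 0.411). Pparg was lower in Pr than in NPr rats by 0.24 (unadjusted p = 0.0323, adjusted p = 0.578 by limma). Fabp4 was lower in the pregnant groups than in NPr rats by 0.23 (unadjusted p = 0.0674, adjusted p = 0.550 by limma). For Lpl, Pparg and Fabp4 the comparison given is the one with the smallest p. In ExpPE vs. NPr Lpl was at -0.05 and Pparg at -0.08 (unadjusted p = 0.664 and 0.429 by limma).

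**Figure D5:**
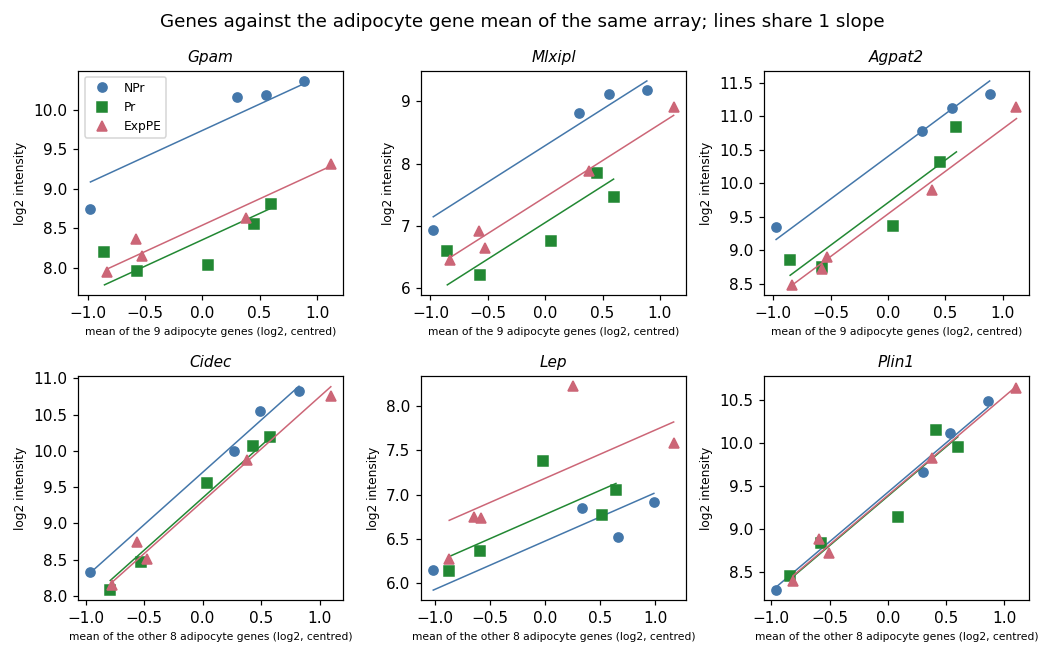
Log2 intensity of 6 genes (y axis) against the mean of the adipocyte genes on the same array (x axis, log2, centred), 1 point per animal, with lines of 1 common slope per gene. The NPr line lies above both pregnant lines for Gpam, Mlxipl, Agpat2 and, by 0.38, for Cidec, below them for Lep and on them for Plin1.

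Of the 18 triglyceride synthesis genes 3 were lower in the pregnant groups by the adjusted p in this fit (Gpam, Acaca and Agpat2), and 9 were lower and 1 higher at the study threshold, with a list median of -0.50. Of the 14 brown adipocyte genes 1 was lower by the adjusted p and 6 at the study threshold, with a median of -0.64. Over all genes 0.398% passed the adjusted p and 3.59% the study threshold in this fit. The genes named next come from several lists and were chosen because they passed. Gpam was lower by 1.29 in the pregnant groups than in NPr rats of like level (SE 0.13, adjusted p = 0.000303), and passed in all 14 fits without 1 animal, where the difference lay between -1.48 and -1.22. Mlxipl was lower by 1.03 (adjusted p = 0.00729), also in all 14. Acaca, acetyl-CoA carboxylase, was lower by 0.86 (adjusted p = 0.0107) and missed the threshold without NPr 1 or NPr 2. Agpat2, the next acyltransferase after Gpam, was lower by 0.77 (adjusted p = 0.0183) and missed it without NPr 1, NPr 2 or NPr 4. Otop1, a brown adipocyte gene, was lower by 1.36 (adjusted p = 0.0121) and missed it without NPr 1 or NPr 3. Pnpla3 was lower by 1.36 (adjusted p = 0.0310) and held in 6 of the 14 fits. For each of these 6 genes the adjusted levels of the 4 NPr rats lay above those of all 10 pregnant rats. In this fit the levels did not overlap for 1.43% of all genes. The 6 genes were picked because they passed in the same fit, so their separation is no added support. With each pregnant group set against NPr by itself, only Gpam passed the adjusted threshold in both. Mlxipl, Acaca, Otop1 and Pnpla3 passed it in Pr vs. NPr but not in ExpPE vs. NPr (adjusted p = 0.127, 0.0973, 0.157 and 0.217 by limma). Agpat2 passed it in ExpPE vs. NPr (adjusted p = 0.0370) but not in Pr vs. NPr (adjusted p = 0.0706). None of the 6 passed the adjusted threshold between ExpPE and Pr, where Mlxipl was at 0.41 (adjusted p = 0.386). Among macrophage genes Siglec1, a macrophage lectin, was higher in the pregnant groups. Its difference was 1.74 without the covariate (adjusted p = 0.000344) and 1.68 with it. Of the 11 macrophage genes 6 were higher in the pregnant groups at the study threshold without the covariate, beside 2.59% of all genes. The groups were not alike in this: 8 of 11 were higher in Pr vs. NPr (3.41% of all genes) and 2 of 11 in ExpPE vs. NPr (3.13%). The medians of the list were 0.78 and 0.34. Summed over the 11, the linear intensity was 3754 to 5173 in NPr, 4957 to 12511 in Pr and 3958 to 7200 in ExpPE rats. The part of macrophages in the differences above was not tested.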

How the data were processed

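The authors made 1 array per rat (Affymetrix Rat Gene 1.1 ST), and the intensity values they deposited were computed with robust multichip average (RMA), quantile normalization over all arrays included, and a custom assignment of probes to genes. Versions and the genome build of the probe assignment are not given in the sources used here. The deposited intensities are linear, and their log2 was analysed with no filter or further normalization. Other deposited columns hold the authors' own comparisons (fold changes, p-values, q-values), which were not used, and probe counts per gene. The number of arrays limits the precision.

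A linear model with 1 mean per group was fitted to the 14 arrays in limma 3.58.1 (R 4.3.3), with a prior variance that follows intensity, and Benjamini-Hochberg adjustment over 19357 genes. The pregnant comparison sets the mean of Pr and ExpPE, equally weighted, against NPr. The study's methods call their test paired but name no pairing, so none was fitted. The fit was tested on simulated data. Nothing states that the animals were littermates or housed apart, and p-values measure the spread between these animals.

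Genes, lists and the covariate were chosen with earlier results of these data known. All 9 measured genes are named with every value, together with up to 4 genes of each list with the smallest p per comparison, and the 10 genes outside the lists most like the mean of the 9 after centring by group and scaling to unit SD. Ucp1 and Myh11 per animal, genes named by their r, and those past the adjusted p in the covariate fit were picked after their values were seen. Promoter windows are from RefSeq, build GRCr8, which is not stated to be the build of the array annotation. Figures were drawn with matplotlib 3.10.9 in Python 3.11.15. Alternatives were other prior variances, array weights, scalings, a filter on intensity, only the groups compared, each animal left out, values within the codes of the array names, and the second table with and without its replicate numbers as a block.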

Additional observations from a re-analysis of the deposited data

How the results depend on the processing

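Over 346 alternative values of the 12 counts and medians, 336 were within 1.5 times the main count or 1 SD of the main median. That SD, of the mean of the 9 genes within groups, was 0.75 on the log2 scale. It is wider than the main medians themselves, so a median could change sign and still be counted as kept. Some alternatives, such as another prior variance, cannot change a median at all. The tally is therefore no measure of stability. No alternative took any of the 9 genes past the adjusted p. In single genes the sign of an uncalled difference changed in 22 of 252 values in Pr vs. NPr, 8 of 252 in ExpPE vs. NPr, 63 of 252 in ExpPE vs. Pr and 13 of 243 in the pregnant groups vs. NPr. At the study threshold, where the count was 0, array quality weights gave 3 genes in the pregnant groups vs. NPr (Cidec, Fabp4 and Pparg, all lower). Without NPr 4 the counts were 1 (Fabp4) in ExpPE vs. NPr and 2 (Cidec and Fabp4) in the pregnant groups vs. NPr, within ranges of 0 to 1 and 0 to 2 when animals were left out. Chosen after seeing the data, leaving out ExpPE 1 and ExpPE 2 gave 2 (Cidec and Pparg) in ExpPE vs. NPr and 1 (Cidec) in the pregnant groups vs. NPr, and the covariate gave 1 (Lep) in each of these. The share of all genes past the study threshold with weights or with animals left out is not given here. These counts are therefore not read as a result about the 9 genes. The median of the 9 genes with animals left out ran from -0.72 to -0.05 in Pr vs. NPr, from -0.79 to -0.09 in ExpPE vs. NPr, from -0.32 to 0.20 in ExpPE vs. Pr and from -0.72 to -0.06 in the pregnant groups vs. NPr. Array names hold a number and a letter. Within number 9 the median was -1.29 in ExpPE vs. NPr and -1.15 in the pregnant groups vs. NPr, and within letter B, which holds NPr 4 with ExpPE 1 and ExpPE 2, it was 1.82 in ExpPE vs. NPr. The cause was not tested.

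The replicate block could be fitted only in the second table under its own titles. With it the median was -0.34 in Pr vs. NPr, -0.30 in ExpPE vs. NPr, 0.04 in ExpPE vs. Pr and -0.30 in the pregnant groups vs. NPr, beside -0.35, -0.31, 0.04 and -0.30 without it, and it changed no call. Of 13 pairs of equal number 7 had deviations that correlated above 0.1, in a range of -0.40 to 0.40, so the numbers are not taken to pair animals.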
